A study of Macaca mulatta with 24 samples.

Results

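The transforming growth factor beta (TGF-beta) family was followed in the endometrium of rhesus monkeys across the first days after ovulation: its ligands (TGF-betas, activins and inhibins, bone morphogenetic proteins or BMPs, growth differentiation factors or GDFs, and Lefty), their receptors, the SMAD proteins and the extracellular antagonists. Members were the genes whose name in the scanner files matched the family's symbols, which gave 49 genes, and FSTL3. The FSTL3 probe carries the provisional name LOC721100 in the files and was tied to its symbol through the gene ID. FSTL3 was added because the definition of the family names it, and members were chosen with earlier results of these data known. These 50 genes lay on 55 of the array's 20217 probes, and the brightest probe of a gene on average stood for it. A further 6 genes (TGFB1, TGFB1I1, SMAD6, LEFTY1, GDF1 and GDF9) matched the family's symbols through updated names only and were kept apart from the members. GDF9 and TGFB1I1 were tied to their symbols through the gene ID, as FSTL3 was, but the definition does not name them. TGFB1I1 is a TGFB1-induced transcript that matched by its prefix only.

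RNA of endometrium was measured on 24 Agilent arrays of the 1-colour type. Conception cycles, in which the animals were mated and conception was proven, were sampled on day 2, day 4 and day 6 after ovulation, with 4 arrays at each day. Cycles without mating, with normal ovulation and in monkeys of proven fertility, were sampled on the same days with 4 arrays each. The labels name no drug, allele, strain or age for any group. The titles of 8 non-mated samples give day 2 whereas their other labels give day 4 or day 6, and the source names of the conception samples count days from fertilization whereas their descriptions count from ovulation. The other labels and the descriptions were used. Whether each array stands for an animal of its own is not stated in the labels. The p-values therefore speak only to the spread among these arrays, part of which may be technical.

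Ligands of this family bind pairs of type I and type II serine/threonine kinase receptors. TGF-betas and activins act mainly through SMAD2 and SMAD3, and BMPs mainly through SMAD1, SMAD5 and SMAD9, each with the shared partner SMAD4, while SMAD6 and SMAD7 inhibit the pathway. Secreted antagonists such as follistatin, follistatin-like 3 and noggin hold ligands away from receptors. In the mouse uterus BMP2 acts downstream of progesterone and Indian hedgehog signalling and is needed for decidualization, and activin and follistatin are known products of the endometrium.

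The levels below rest on these 60-base probes, of which bases 31 to 60 are shown 5′ to 3′ for the members the results turn on, with the polyadenylation hexamer AATAAA in capitals where it occurs.
FSTL3: cctgcctcaccaaagaAATAAAgactcaag
FST: tacaagtgttcagtgttgacatagcctttg
NOG: tgtatatacggtcccagttttaatttactt
BMP2: tggagggttgtgggtgtcgctagtacagca
TGFBR2: gcagaacctctgggcaccttactcagtgtg
GDF7: gccaacaatgttgtctacaagcaatacgag
On the rheMac2 build, the full FSTL3 probe lay at chr19:430119-430178 on the plus strand, the FST probe at chr6:51147322-51147381, the NOG probe at chr16:40809034-40809093, the BMP2 probe at chr10:40086095-40086154, the TGFBR2 probe at chr2:173133982-173134041 and the GDF7 probe at chr13:20596753-20596812, all on the plus strand in the files' annotation. Which exon or UTR these positions fall in was not looked up, as no annotation of that build was used here. Searched in both directions over all 60 bases and with overlaps allowed, AATAAA occurred on the probe strand in 3 of 50 members' probes (6.0%), against 12.8% of the 20217 probes. On the opposite strand it occurred in 3 of 50 (6.0%), against 4.67% of all probes.

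The arrays were of unequal quality. Of 20217 probes, between 53.3% and 71.5% were well above background on 21 arrays, but 4.33% were on non-mated day 2 replicate 3, 37.9% on non-mated day 4 replicate 1 and 21.8% on non-mated day 4 replicate 2. On these 3 weak arrays the lowest level measurable was -0.28, -3.68 and -1.73 on the log2 scale used here. On the others it was -8.29 to -5.58. Of the 50 members, 36, 17 and 32 sat at that floor on the weak arrays, against 9 to 20 on the others. Levels are log2 of the processed intensity minus the 75th percentile of the array, so that 0 is the 75th percentile. Results that rest on them were also computed on the 21 other arrays. The arrays lay on slides 1 to 9 and were scanned on 2 days. The intensity at which spots saturate was 65204 or 65207 on the arrays of slides 4 and 8, and 625269 to 640739 on the others. The low value fell on conception day 2 replicates 1, 2 and 4, replicate 4 of conception day 4 and day 6, and non-mated day 2 replicate 2. It is thus partly confounded with day in conception cycles. On scan day 1 conception arrays were on slides 7 and 8 and non-mated arrays on slides 5 and 6, where slide and cycle type cannot be told apart. The labelled tissue was checked on the 21 arrays. Of 9 epithelial markers listed, the 4 found by symbol (KRT19, PAX8, CLDN3 and CLDN4) were well above background on all 21. So were VIM, DCN, COL1A2, PDGFRA, HOXA10 and HOXA11 of the stromal list, and the smooth muscle markers DES, MYH11 and ACTG2. LUM of the stromal list was so on 13 of the 21 arrays, and CNN1 of the smooth muscle list on 4. Of the leukocyte markers, CD68 and CD14 were well above background on all 21 and NCAM1 on 14. CD3E and MS4A1, markers of lymphocytes, were so on 7 and 1 of the 21 arrays.

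Of the 50 members, 30 reached the filter on dim probes (signal well above background on 3 or 4 arrays of some group) and were tested among 12214 features. The other 20 members had too little signal for a test. Among these, 7 were well above background on none of the 24 arrays: the activin subunit INHBA, the activin receptor ACVR1B, BMP3, BMP5, GDF6, FSTL5 and the BMP antagonist GREM1. The remaining 13 (TGFB3, INHBB, INHBC, BMP10, BMP15, GDF2, GDF3, GDF5, GDF10, LEFTY2, SMAD2, FSTL4 and TGFBRAP1) were so on 1 to 6 arrays. INHBB, the beta B subunit of activin, reached 6 arrays. TGFB3 was well above background on 2 arrays and LEFTY2, a Nodal antagonist, on 2 arrays. INHBA levels on the 21 arrays ran from -8.29 to -5.58, TGFB3 levels from -7.31 to -3.89 and LEFTY2 levels from -8.16 to -3.53. On arrays where a gene was not well above background only an upper limit is known, and no difference between groups is given for these 20 genes.

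**Figure D1:**
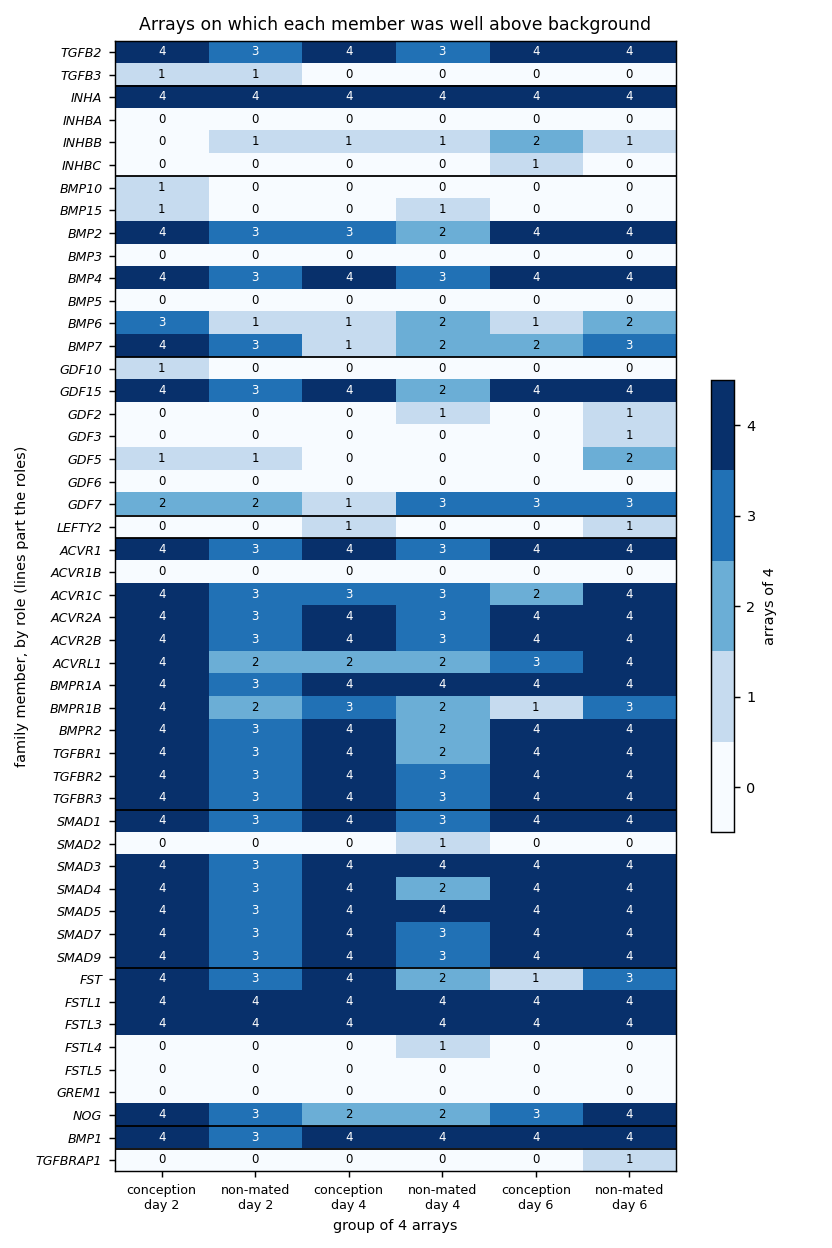
Number of arrays, of 4 in each group, on which each of the 50 members was well above background, with members in rows by role and groups in columns. Most receptors and SMADs are well above background on 3 or 4 arrays in most groups, INHBA is at 0 throughout, and FST is at 1 in conception cycles at day 6.

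By role, the tested members were 1 of 2 TGF-beta ligands (TGFB2), 1 of 4 activin and inhibin subunits (INHA), 4 of 8 BMPs, 2 of 7 GDFs, 11 of 12 receptors, 6 of 7 SMADs, 4 of 7 antagonists and follistatin-like proteins, and BMP1, which despite its name is a procollagen protease. FSTL1, FSTL3 and INHA were well above background on all 24 arrays, and 22 members on at least 20. Each comparison was tested by limma, with Benjamini-Hochberg adjustment over the 12214 features and a threshold of 0.05 on the adjusted p.

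No tested member passed the threshold between cycle types at any day. The number past the threshold was 0 of 30 members at day 2 (0% of all features), 0 at day 4 (0%) and 0 at day 6 (0.00819% of all features, a single one). At an unadjusted p under 0.05, limma had 1 member at day 2 (2.5% of all features), 2 at day 4 (6.09%) and 1 at day 6 (2.39%), shares of 30 near those of the whole array. Averaged over the days, 0 members passed, where 0.00819% of features did. In limma 3 members (BMP2, FSTL3 and NOG) had an unadjusted p under 0.05, where 6.71% of features did. BMP2 and NOG sat at the floor of weak non-mated day 2 replicate 3 and day 4 replicate 2, so these values are upper limits. The median difference, conception minus non-mated, over the 30 tested members was -0.34 at day 2, 0.08 at day 4 and -0.02 at day 6 (log2), beside -0.15, 0.02 and 0.00 over all features. When the weak arrays were left out, 0 members passed at any day (0.0246% of features at day 6), and the members' medians were -0.05 at day 2 and 0.01 at day 4, beside 0.02 and 0.01 over all features. In bulk tissue, fewer cells of a type and less RNA per cell cannot be told apart in any of these differences.

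**Figure D2:**
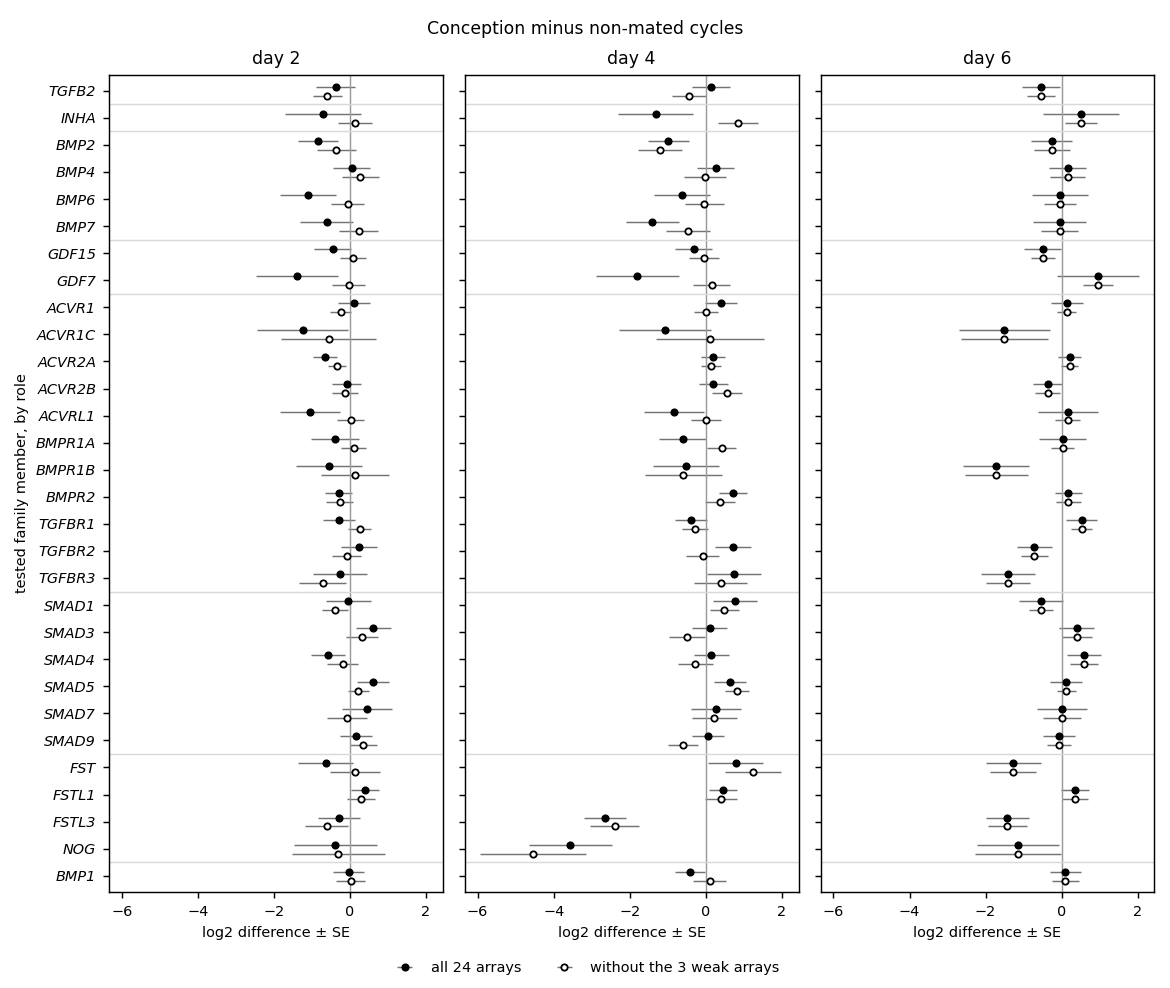
Log2 difference, conception minus non-mated, with its standard error, for the 30 tested members by role at day 2, day 4 and day 6. Filled points use all 24 arrays and open points the 21 arrays that were not weak. FSTL3 (-2.65) and NOG (-3.57) stand lowest at day 4, and none of the points passed the threshold.

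The smallest p among members belonged to FSTL3, which encodes follistatin-like 3, a secreted protein that binds activins and myostatin. At day 2 its levels were 2.34, 4.40, 4.23 and 4.19 in conception cycles, against 3.98, 4.18, 3.15 and 5.04 in non-mated cycles, where replicate 3 is weak. At day 4 they were 1.74, 1.05, 0.81 and 0.47 in conception cycles, against 3.30, 4.53, 3.76 and 3.07 in non-mated cycles, of which the first pair is from weak arrays. At day 6 they were 2.04, 1.59, 1.44 and 3.08 in conception cycles, against 4.15, 2.39, 4.51 and 2.81 in non-mated cycles. The groups overlap at day 2 and day 6, whereas at day 4 all 4 conception arrays lie below all 4 non-mated arrays.

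The mean FSTL3 level at day 4 was 1.02 ± 0.54 in conception cycles and 3.67 ± 0.64 in non-mated cycles (SD, n = 4 each). The difference was -2.65 ± 0.55 (log2, SE), which did not pass over all features (limma, adjusted p = 0.272). Without the weak arrays, with 2 non-mated arrays left, it was -2.40 ± 0.64 (limma, adjusted p = 0.863). The difference was -0.30 ± 0.55 at day 2 (adjusted p = 0.865; -0.61 on the 21 arrays) and -1.43 ± 0.55 at day 6 (adjusted p = 1.00; limma for both). Averaged over the days it was -1.46 ± 0.32 (limma, adjusted p = 0.187).

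Batches of arrays gave these FSTL3 differences at day 4: -2.78 on scan day 1 and -2.52 on scan day 2 (2 against 2 arrays each). Within slide 2 the difference was -1.56, and within slide 3 it was -3.48, each 1 array against 1 weak array. At day 6 it was -2.33 within slide 1 (2 arrays against 1), -1.19 on scan day 1 and -1.66 on scan day 2. The sign was the same throughout at these days, but slides and scan days share arrays. At day 4 both non-mated arrays of scan day 2 are weak, and they are those of slides 2 and 3. On scan day 1 slide and cycle type cannot be told apart, and the non-mated day-4 arrays that are not weak are all from it. The arrays of slide 1 are among those of scan day 2. At day 2 the FSTL3 difference was -0.81 within slide 4 (2 arrays against 1). It was 0.11 on scan day 1 (-0.83 without the weak array) and -0.71 on scan day 2. The day-4 difference compared with the day-2 difference, as an interaction term, was -2.35 ± 0.78 (limma, adjusted p = 1.00), and -1.79 ± 0.86 without the weak arrays (adjusted p = 0.994).

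At day 4 the median difference of the 4 tested epithelial markers was 0.25 with all arrays and -0.26 without the weak ones, and that of the 7 stromal markers was 0.19 and 0.58. At day 6 these medians were -0.56 for epithelium and -0.05 for stroma. Over the arrays that were not weak, the mean level of the 4 epithelial markers at day 6 ran from 2.09 to 2.55 in conception cycles, against 2.44 to 3.18 in non-mated cycles, and at day 4 from 1.30 to 3.097 in conception cycles, against 2.53 to 2.91 in non-mated cycles. The mean level of the 3 tested leukocyte markers (CD68, CD14 and NCAM1) at day 4 ran from -1.63 to -1.34 in conception cycles. It ran from -2.40 to -1.89 on the 2 non-mated arrays left, where 7.19% of all features lay apart on the higher side. The 3 markers did not agree at day 4: 2 were higher and 1 lower (-1.54 to 1.14), and 2 were higher without the weak arrays. At day 6 the mean ran from -1.69 to -1.10 in conception cycles, against -2.095 to -1.65 in non-mated cycles, which overlap. HBB, the erythrocyte marker measured, differed by 1.42 at day 4 and by 2.00 without the weak arrays, where it ran from 2.17 to 3.90 in conception cycles, against 0.83 to 1.02 in non-mated cycles. FOXJ1, a marker of ciliated cells, differed by -1.69 at day 4 (-0.18 without the weak arrays) and by 1.07 at day 6. The mean level of the 3 tested smooth muscle markers at day 2 ran from 0.055 to 5.85 in conception cycles, against 0.41 to 2.92 in non-mated cycles. At day 4 it ran from 0.18 to 1.735, against 0.28 to 2.56, and at day 6 from 0.88 to 2.52, against 0.97 to 2.27. The conception arrays of day 2 enter each conception comparison with that day. The part of these cell types in the differences of FSTL3 was not tested.

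**Figure D3:**
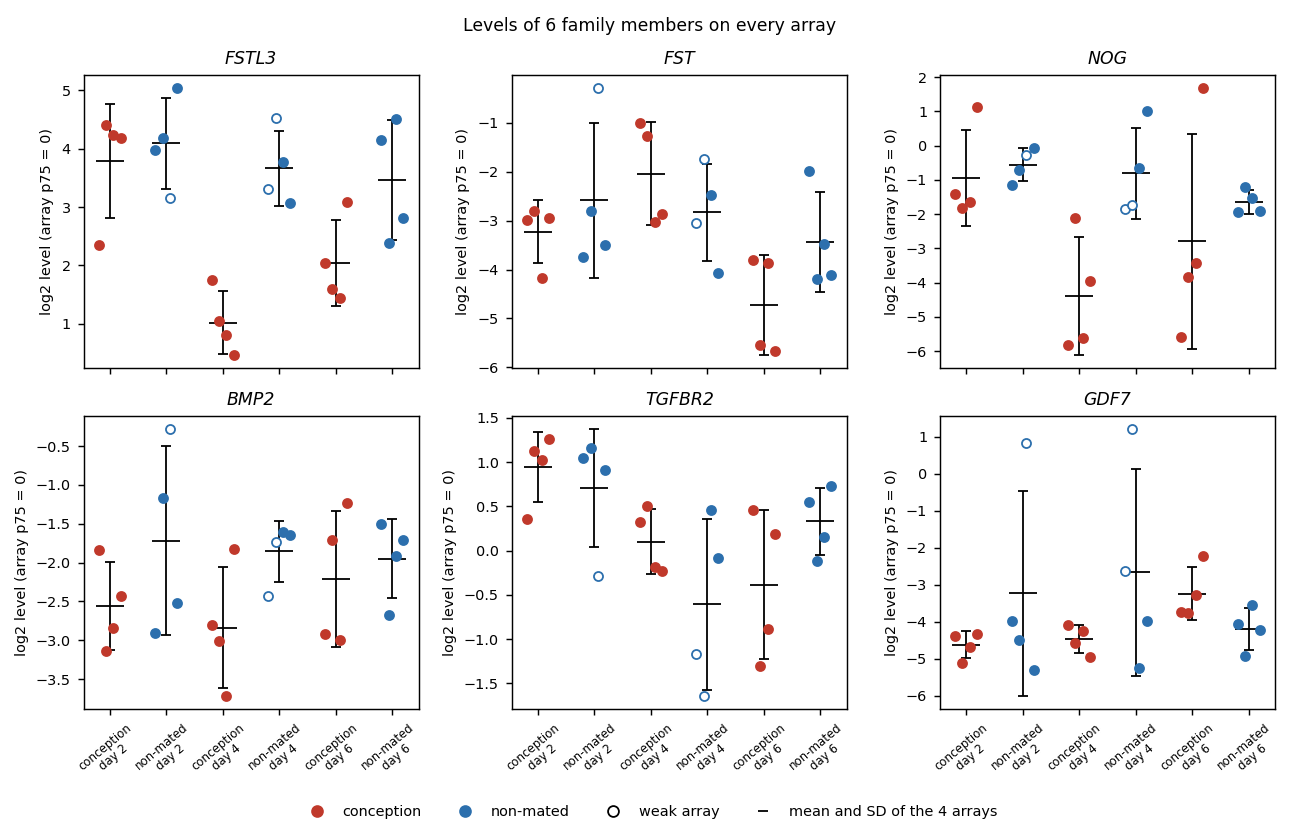
Levels (log2, with the 75th percentile of each array at 0) of 6 members on each of the 24 arrays, with conception cycles in red and non-mated cycles in blue for each day, the mean and SD of 4 arrays as bars, and weak arrays as open circles. FSTL3 lies between 0.47 and 1.74 on the conception arrays at day 4, against 3.07 to 4.53 on the non-mated arrays.

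Noggin (NOG), which binds BMPs and keeps them from their receptors, had the second smallest p among members at day 4. Its levels at day 2 were -1.42, -1.83, -1.65 and 1.13 in conception cycles, against -1.14, -0.70, -0.28 and -0.06 in non-mated cycles. At day 4 they were -5.81, -2.12, -5.63 and -3.95 in conception cycles, against -1.86, -1.73, -0.66 and 1.01 in non-mated cycles. On day 6 they were -5.58, -3.85, -3.43 and 1.69 in conception cycles, against -1.94, -1.22, -1.51 and -1.91 in non-mated cycles. At day 4 the groups do not overlap, and at day 6 conception replicate 4 lies above every non-mated array while the other conception arrays lie below them all. On conception day 4 replicate 3 and conception day 6 replicate 1 NOG sits at the lowest level of the array, and it sits there too on weak non-mated day 2 replicate 3 and day 4 replicate 2.

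NOG differed by -3.57 ± 1.09 at day 4 (limma, adjusted p = 0.687), and by -4.55 ± 1.39 without the weak arrays (limma, adjusted p = 0.863). The day-4 difference was -4.96 on scan day 1 and -2.17 on scan day 2, where both non-mated arrays are weak. Within slides 2 and 3, which hold the same scan day 2 arrays, it was -3.95 and -0.39 (each 1 array against 1 weak array). FSTL3 and NOG were the 2 tested members whose day-4 groups did not overlap with the conception arrays lower, against 1.29% of all features. For NOG this holds for the measured values only, as its value on weak non-mated replicate 2 is the floor of that array and so an upper limit. No member lay apart on the higher side at day 4, against 1.12% of features, and at day 2 and day 6 no member lay apart in either direction, against 0.565% (higher) and 0.835% (lower) of features at day 2 and 2.56% and 1.74% at day 6. With the weak arrays left out, no member lay apart at day 2 (1.43% of features higher, 1.37% lower), and at day 4, where 2 non-mated arrays remain, BMP2 joined them on the lower side (3 members, against 6.8% of features) and SMAD5 lay apart on the higher side (1 member, against 7.19%).

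Follistatin (FST), which binds activins with high affinity, had day-2 levels of -2.99, -2.80, -4.17 and -2.94 in conception cycles, against -3.73, -2.81, -0.28 and -3.50 in non-mated cycles. At day 4 they were -0.99, -1.27, -3.03 and -2.86 in conception cycles, against -3.04, -1.73, -2.47 and -4.07 in non-mated cycles. Day-6 levels of FST were -3.80, -5.53, -3.87 and -5.67 in conception cycles, against -1.99, -4.20, -3.47 and -4.12 in non-mated cycles. The groups overlap at every day. At day 4 the higher pair of conception arrays (replicates 1 and 2) was scanned on scan day 2 and the lower pair on scan day 1. The FST difference was -0.64 ± 0.73 at day 2 (adjusted p = 0.799), 0.79 ± 0.73 at day 4 (adjusted p = 0.715) and -1.27 ± 0.73 at day 6 (adjusted p = 1.00; limma for each). Without the weak arrays, of which day 2 replicate 3 holds FST at its floor, the FST difference was 0.12 at day 2, with its sign turned, and 1.23 at day 4 (limma, adjusted p = 0.999 and 0.863). FST was well above background on 1 of 4 conception arrays at day 6, against 3 of 4 non-mated arrays, so its conception level there is close to an upper limit. The lowest level well above background of any probe ran from -4.63 to -3.99 on these conception arrays, against -6.70 to -4.30 on these non-mated arrays. The 2 counts therefore do not share 1 limit of signal, and the part of this was not tested. FSTL1, a secreted glycoprotein of the follistatin-like group, was higher by 0.35 to 0.44 in conception cycles at each day, with adjusted p from 0.703 to 1.00 (limma), and by 0.29 and 0.39 at days 2 and 4 on the 21 arrays. Its levels at day 4 were 2.53, 2.73, 3.82 and 3.38 in conception cycles, against 2.96, 2.29, 2.19 and 3.26 in non-mated cycles, which overlap.

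Among the ligands, BMP2 was measured at low levels. At day 2 they were -1.83, -3.14, -2.85 and -2.43 in conception cycles, against -2.91, -1.16, -0.28 and -2.52 in non-mated cycles. At day 4 they were -2.81, -3.01, -3.72 and -1.82 in conception cycles, against -2.43, -1.73, -1.60 and -1.65 in non-mated cycles. Day-6 levels of BMP2 were -2.91, -1.71, -2.99 and -1.23 in conception cycles, against -1.50, -2.67, -1.92 and -1.70 in non-mated cycles. Conception and non-mated arrays overlap at each day. The BMP2 difference was -0.84 ± 0.54 at day 2 (adjusted p = 0.792), -0.98 ± 0.54 at day 4 (adjusted p = 0.687) and -0.26 ± 0.54 at day 6 (adjusted p = 1.00; limma for each). The non-mated values of -0.28 at day 2 and -1.73 at day 4 are the floor of weak arrays. Without the weak arrays the BMP2 difference was -0.36 at day 2 and -1.21 at day 4. On scan days 1 and 2 the day-4 difference was -1.14 and -0.83, with both non-mated arrays of scan day 2 weak. With quantile normalization in place of the 75th percentile the sign turned at day 2 (0.33) and day 4 (0.015), where the median of all features moved to 0.49 and 0.41.

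BMP7 was well above background on 1 of 4 conception arrays at day 4, against 2 of 4 non-mated arrays. The lowest level well above background of any probe ran from -4.72 to -4.04 on these conception arrays. It was -6.25 and -6.34 on the non-mated arrays of that day that are not weak. Its day-4 levels were -5.22, -4.66, -2.19 and -4.53 in conception cycles, against -1.85, -1.73, -3.79 and -3.57 in non-mated cycles, where the first pair is from weak arrays. The BMP7 difference of -1.41 ± 0.70 (limma, adjusted p = 0.687) came to -0.47 without the weak arrays. BMP4 differed by 0.04, 0.25 and 0.16 at days 2, 4 and 6, each within its SE of 0.48, and by 0.27 and -0.017 at days 2 and 4 without the weak arrays. BMP6 at day 2 had levels of -4.74, -3.78, -4.54 and -4.99 in conception cycles, against -4.59, -4.75, -0.28 and -3.99 in non-mated cycles, where weak replicate 3 is at its floor. The BMP6 difference of -1.11 ± 0.73 (limma, adjusted p = 0.792) was -0.07 without it. BMP6 was well above background on 10 of 24 arrays, the fewest of the tested members.

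TGFB2 was the TGF-beta ligand with signal under the files' names. At day 2 its levels were -0.34, -0.06, 0.33 and -0.03 in conception cycles, against 0.47, 0.21, -0.28 and 1.03 in non-mated cycles. At day 4 they were 0.24, 0.40, 0.05 and 0.23 in conception cycles, against 0.76, -1.73, 1.33 and 0.01 in non-mated cycles. Day-6 levels of TGFB2 were -0.46, -0.46, -0.39 and 0.21 in conception cycles, against -0.56, 1.14, 0.90 and -0.41 in non-mated cycles. The groups overlap, and the conception arrays of day 4 span the narrowest range (SD 0.15, n = 4). The TGFB2 differences were -0.38 ± 0.50, 0.14 ± 0.50 and -0.54 ± 0.50 at days 2, 4 and 6, with limma's adjusted p from 0.818 to 1.00. On the 21 arrays they were -0.59 at day 2 and -0.44 at day 4, so the day-4 sign turned and TGFB2 had a negative difference at each of the 3 days, none past the threshold.

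TGFB1, found through its updated name, had day-2 levels of -0.34, -1.02, -1.21 and -0.73 in conception cycles, against -1.67, -1.28, 0.88 and -0.60 in non-mated cycles. At day 4 its levels were -0.60, -0.97, -1.01 and -0.83 in conception cycles, against -0.66, 1.00, -0.94 and -0.70 in non-mated cycles. At day 6 they were -0.26, -0.74, -0.83 and -1.63 in conception cycles, against -0.96, -1.30, -0.66 and -1.26 in non-mated cycles. TGFB1 groups overlap at each day, and its differences of -0.15, -0.53 and 0.18 were within or close to the SE of 0.48. The non-mated values of 0.88 at day 2 and 1.00 at day 4 are from weak arrays, and without these arrays the TGFB1 difference was 0.36 at day 2, with its sign turned, and -0.031 at day 4.

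INHA, the alpha subunit that makes inhibin from activin subunits, had conception levels of -0.63, -0.80, -1.07 and -1.99 at day 4, against 0.30, 4.43, -1.77 and -2.16 in non-mated cycles. The non-mated value of 4.43 comes from weak replicate 2. The INHA difference at day 4 was -1.32 ± 0.99 with all arrays and 0.84 without the weak arrays, neither past the threshold (limma, adjusted p = 0.699 with all arrays). GDF7, a BMP-like ligand, had day-2 levels of -4.38, -5.12, -4.68 and -4.33 in conception cycles, against -3.98, -4.49, 0.84 and -5.31 in non-mated cycles. At day 4 GDF7 levels were -4.08, -4.57, -4.26 and -4.96 in conception cycles, against -2.63, 1.20, -5.26 and -3.98 in non-mated cycles. At day 6 they were -3.73, -3.75, -3.27 and -2.22 in conception cycles, against -4.06, -4.94, -3.56 and -4.24 in non-mated cycles. The high non-mated GDF7 values at day 2 (0.84) and day 4 (1.20) are from weak arrays. Its difference at day 6, where no array is weak, was 0.96 ± 1.08 (limma, adjusted p = 1.00). GDF15, a stress-induced ligand, was lower by 0.32 to 0.50 in conception cycles at the 3 days, about its SE of 0.48, and without the weak arrays it differed by 0.07 at day 2 and -0.05 at day 4.

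Of the 11 tested receptors, 2 were higher and 9 lower in conception cycles at day 2, with 4 higher on the 21 arrays. Of all 12214 features 5047 were higher and 7167 lower at day 2, with 6327 higher on the 21 arrays. At day 4, 6 receptors were higher and 5 lower (8 higher on the 21 arrays), and at day 6 the counts were 6 and 5, with none past the threshold. Over all features 6219 were higher and 5995 lower at day 4 (6227 higher on the 21 arrays), and 6105 and 6109 at day 6. TGFBR2, the type II TGF-beta receptor, had day-2 levels of 0.36, 1.13, 1.02 and 1.26 in conception cycles, against 1.04, 1.16, -0.28 and 0.91 in non-mated cycles. At day 4 they were 0.32, 0.51, -0.19 and -0.23 in conception cycles, against -1.17, -1.64, 0.46 and -0.09 in non-mated cycles. At day 6 TGFBR2 levels were 0.46, -1.31, -0.88 and 0.18 in conception cycles, against 0.55, -0.11, 0.15 and 0.73 in non-mated cycles. The groups overlap throughout, and the lowest day-4 pair is from the weak arrays. TGFBR2 differed by 0.71 ± 0.47 at day 4 (limma, adjusted p = 0.687) but by -0.09 without the weak arrays.

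At day 6, where no array is weak, TGFBR3 (betaglycan, a co-receptor for TGF-beta and inhibin) was at 2.23, -0.35, -1.14 and 0.44 in conception cycles, against 1.74, 1.75, 2.09 and 1.23 in non-mated cycles. The BMP receptor BMPR1B was at -2.27, -5.18, -4.64 and -5.41 in conception cycles, against -3.74, -1.61, -1.96 and -3.32 in non-mated cycles. In both genes conception replicate 1 lies within or above the non-mated range, and the other 3 conception arrays lie below it. TGFBR3 differed by -1.41 ± 0.71 and BMPR1B by -1.72 ± 0.86 (limma, adjusted p = 1.00 for both), and BMPR1B was well above background on 1 of 4 conception arrays. The limit of signal differed between the arrays of this day, as given for FST. TGFBR1, the type I TGF-beta receptor, was at -1.80, -2.55, -0.99 and -1.98 in conception cycles, against -2.27, -2.39, -2.24 and -2.50 in non-mated cycles, a difference of 0.52 ± 0.42 (limma, adjusted p = 1.00).

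The type II BMP receptor BMPR2 at day 4 was at -1.18, -0.53, 0.10 and -0.67 in conception cycles, against -1.49, -1.73, -1.24 and -0.64 in non-mated cycles, a difference of 0.71 ± 0.36 (limma, adjusted p = 0.687). The lowest pair of non-mated BMPR2 values is from the weak arrays, without which the difference was 0.37. The activin receptor ACVR2A at day 2 was at -2.14, -2.13, -1.56 and -1.57 in conception cycles, against -1.46, -1.27, -0.28 and -1.78 in non-mated cycles. Its difference there was -0.65 ± 0.31 (limma, adjusted p = 0.792), and -0.35 without the weak array. ACVRL1, an endothelial receptor for BMP9 and BMP10, was at -3.97, -3.70, -3.52 and -3.38 in conception cycles at day 2, against -2.69, -4.17, 0.65 and -4.11 in non-mated cycles, and its difference of -1.06 ± 0.79 was 0.02 without the weak array. The 3 TGFBR2 probes disagreed in sign at day 2 and day 4: the brightest gave 0.24 and 0.71, the second 0.13 and 0.71, and the dimmest, well above background on 9 of 24 arrays, -1.64 and -1.35. Without the weak arrays all 3 were negative, at -0.09, -0.16 and -0.74 at day 2 and -0.09, -0.22 and -0.69 at day 4. At day 6 they gave -0.72, -0.73 and -0.78. The 3 TGFBR1 probes gave 0.52, 0.25 and 0.53 at day 6.

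All 6 tested SMADs were higher in conception cycles at day 4, by 0.07 to 0.76, with a median of 0.21 beside 0.02 over all features, and no SMAD past the threshold. On the 21 arrays 3 of 6 were higher and the median was -0.02. SMAD5, a BMP-responsive SMAD, was at 3.17, 2.64, 2.23 and 2.17 in conception cycles at day 4, against 3.14, 1.05, 1.57 and 1.91 in non-mated cycles. SMAD1, of the same branch, was at 1.50, 1.83, 1.04 and 0.92 in conception cycles, against 2.31, -1.73, 1.26 and 0.41 in non-mated cycles. The lowest non-mated value of both is from weak replicate 2, and the highest from weak replicate 1. SMAD5 differed by 0.64 ± 0.42 (limma, adjusted p = 0.687), and by 0.81 ± 0.31 without the weak arrays (limma, adjusted p = 0.863). SMAD1 differed by 0.76 ± 0.58 at day 4 (limma, adjusted p = 0.699), and by 0.49 without the weak arrays.

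At day 2 the inhibitory SMAD7 was at 1.18, 2.01, 2.48 and 1.45 in conception cycles, against 2.54, 1.53, -0.28 and 1.51 in non-mated cycles, a difference of 0.46 ± 0.66 that was -0.08 without the weak array. SMAD3, which carries TGF-beta and activin signals, was at 0.98, 0.71, 2.05 and 1.21 in conception cycles at day 2, against 0.75, 0.75, -0.28 and 1.29 in non-mated cycles. At day 6 SMAD3 was at 1.27, 2.18, 1.19 and 3.19 in conception cycles, against 1.63, 1.83, 1.87 and 0.90 in non-mated cycles. These overlap, with conception day 6 replicate 4 the highest SMAD3 value of the 24. The shared partner SMAD4 at day 6 was at -0.65, -1.64, -1.47 and -0.09 in conception cycles, against -1.35, -1.43, -1.98 and -1.44 in non-mated cycles, a difference of 0.58 ± 0.45 (limma, adjusted p = 1.00). SMAD2, the other SMAD of the activin and TGF-beta branch, was well above background on 1 of 24 arrays.

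From day 2 to day 6 no member passed the threshold in either cycle type: 0 of 30 in conception cycles (0.0164% of all features) and 0 of 30 in non-mated cycles (0%). At an unadjusted p under 0.05 limma had 2 members in conception cycles (FSTL3 and TGFBR2, against 4.16% of features) and 0 in non-mated cycles (3.24%). The members' median change, day 6 minus day 2, was 0.06 in conception cycles and -0.30 in non-mated cycles, beside -0.02 and -0.19 over all features. Without the weak array of non-mated day 2 the non-mated median was 0.10, beside 0.01.

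**Figure D4:**
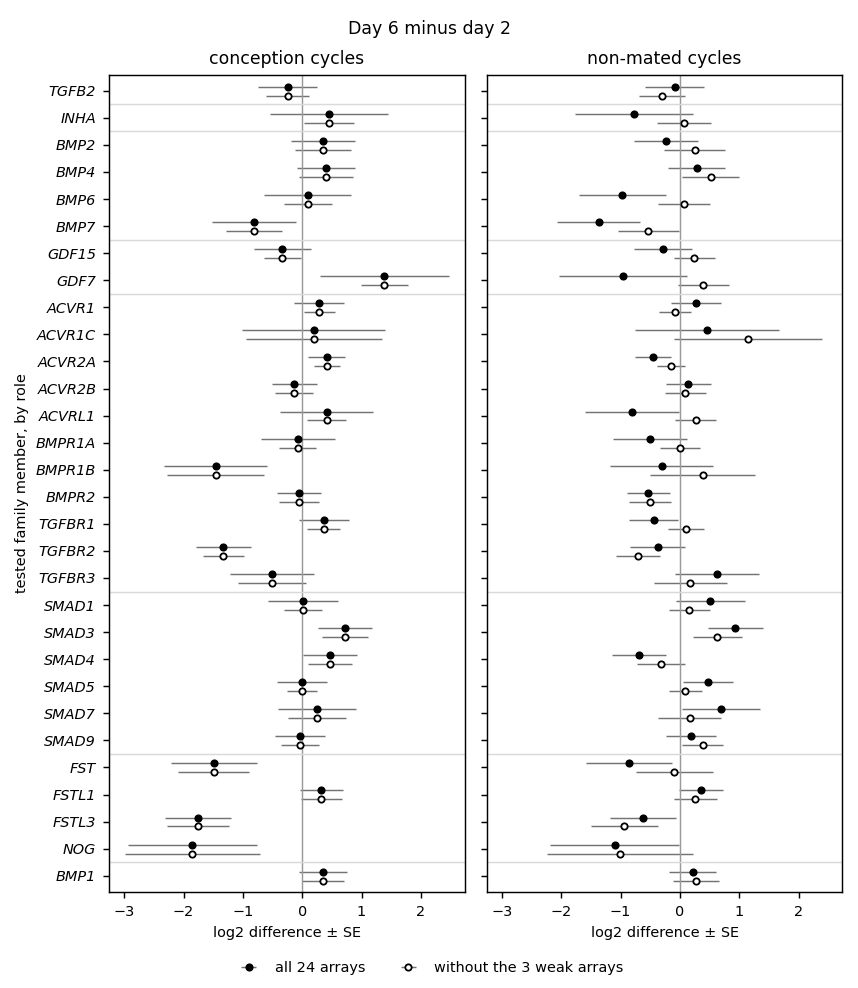
Log2 difference, day 6 minus day 2, with its standard error, for the 30 tested members by role in conception cycles and in non-mated cycles, with filled points for all 24 arrays and open points without the 3 weak arrays. In conception cycles NOG (-1.85), FSTL3 (-1.75), FST (-1.49), BMPR1B (-1.46) and TGFBR2 (-1.33) stand lowest and GDF7 (1.38) highest.

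In conception cycles the FSTL3 level averaged 2.04 ± 0.74 at day 6 and 3.79 ± 0.97 at day 2 (SD, n = 4 each), a difference of -1.75 ± 0.55 (limma, adjusted p = 0.909). In non-mated cycles it averaged 3.46 ± 1.02 at day 6 and 4.09 ± 0.78 at day 2, a difference of -0.62 ± 0.55 (limma, adjusted p = 0.765), or -0.94 on the 21 arrays. On the 21 arrays the difference in conception cycles had an adjusted p of 0.105 (limma), where 1.7% of features and 0 of 30 members passed. Its conception levels were lowest at day 4, where the mean lay 2.77 ± 0.55 below that of day 2 (limma, adjusted p = 0.190). A test over the 3 days in conception cycles gave 0 of 30 members past the threshold (0.00819% of features) and an adjusted p of 0.405 for FSTL3 (limma F-test). At an unadjusted p under 0.05 limma had 4 members (FSTL3, FST, NOG and TGFBR2), against 2.21% of features. Without the weak arrays FSTL3 passed with an adjusted p of 0.0491, as 1 of 30 members, where 0.426% of features passed. The weak arrays are all non-mated and enter this conception test only through the shared estimate of spread. The saturation value differs between most day-2 arrays and most later arrays of these cycles, and its part was not tested. In non-mated cycles 0 of 30 members passed the test over the days (0%), where limma had 1 member at an unadjusted p under 0.05 (TGFBR2), against 2.46% of features.

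TGFBR2 in conception cycles was at 0.46, -1.31, -0.88 and 0.18 on day 6, against 0.36, 1.13, 1.02 and 1.26 on day 2, a difference of -1.33 ± 0.47 (limma, adjusted p = 0.998). Its adjusted p on the 21 arrays was 0.0600. The TGFBR2 difference was -1.49 on scan day 1 and -1.17 on scan day 2, and -1.91 within slide 7 and -1.07 within slide 8. The same receptor in non-mated cycles differed by -0.38 ± 0.47 from day 2 to day 6, and by -0.71 ± 0.37 on the 21 arrays. Its second probe gave -1.39 in conception cycles and its dimmest -0.84. FST in conception cycles differed by -1.49 ± 0.73 (limma, adjusted p = 0.998) and in non-mated cycles by -0.86 ± 0.73, which came to -0.095 without the weak array at its floor. GDF7 in conception cycles differed by 1.38 ± 1.08 (limma, adjusted p = 0.998). GDF7 was the single tested member whose conception arrays at day 6 all lay above those at day 2, against 5.31% of features. None lay apart on the lower side, against 2.4%. GDF7 was well above background on 14 of 24 arrays and on at most 3 of a group, so its levels lie near the limit of signal.

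On the higher side in conception cycles SMAD3 followed with 0.72 ± 0.46 and ACVR2A with 0.41 ± 0.31. In non-mated cycles SMAD3 differed by 0.93 ± 0.46 from day 2 to day 6, SMAD7 by 0.70 ± 0.66 and SMAD5 by 0.47 ± 0.42 (limma, adjusted p = 0.765 for each). Without the weak array these came to 0.63, 0.16 and 0.089. BMP7, SMAD4 and BMPR2 had the smallest p on the lower side in non-mated cycles, with -1.37 ± 0.70, -0.69 ± 0.45 and -0.53 ± 0.36 (limma, adjusted p = 0.765 for each). On the 21 arrays these were -0.53, -0.31 and -0.50. NOG and SMAD4 were the 2 members whose non-mated arrays at day 6 all lay below those at day 2, against 1.92% of features, and none lay above, against 1.06%. The NOG value on weak non-mated day 2 replicate 3 is the floor of that array and so an upper limit. On the 21 arrays TGFBR2 joined NOG and SMAD4 (3 members, against 2.73% of features), and none lay above, against 2.3%. BMP2 differed by 0.35 ± 0.54 in conception cycles and by -0.23 ± 0.54 in non-mated cycles, where it was 0.25 on the 21 arrays.

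The interaction of cycle type and day passed for 0 of 30 members (0%). At an unadjusted p under 0.05 limma's F-test had 1 member, FSTL3 (adjusted p = 0.986), against 1.37% of features. The conception and the day comparisons share their conception arrays, so they are not separate evidence on FSTL3.

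Other genes of the pathway were taken from lists by role. Of the target genes and intracellular modulators, 11 of 16 found by symbol were tested and 0 passed in any comparison. At day 4, 10 were higher and 1 lower in conception cycles (median 0.28, beside 0.02 over all features). On the 21 arrays 7 of 11 were higher, with a median of 0.41. The BMP target genes ID1, ID2, ID3 and ID4 differed by 0.20, 0.28, 0.30 and 0.99 at day 4, and by -0.09, 0.83, -0.12 and 0.43 at day 6. The day-4 values on the 21 arrays were 0.32, -0.19, 0.52 and 0.41, with the sign of ID2 turned. TGFBI, a matrix protein induced by TGF-beta, differed by 0.01 at day 4 and 1.80 at day 6, and PMEPA1, a feedback inhibitor, by 0.49 and 0.82. At day 4 TGFBI came to 0.52 and PMEPA1 to 0.54 on the 21 arrays.

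Of the latency, activation and extracellular modulators, 11 of 18 found by symbol were tested and 0 passed the threshold. At day 4, 7 were higher and 4 lower (median 0.14, and 0.24 without the weak arrays). At day 6, 6 were higher and 5 lower (median 0.07). Latent TGF-beta binding proteins LTBP3 and LTBP4 differed by 0.23 and -1.29 at day 4, and by 0.24 and 0.21 without the weak arrays. Of the other ligands and receptors of the superfamily, AMH, AMHR2 and MSTN were tested and did not pass. Of the genes around BMP2 in the mouse uterus, all 6 found by symbol were tested and 0 passed the threshold. Their medians were 0.34, 0.15 and -0.21 at days 2, 4 and 6. IHH, the Indian hedgehog ligand, differed by 1.00, 0.17 and 0.55 at days 2, 4 and 6, NR2F2, the nuclear receptor COUP-TFII, by 0.29, 0.13 and -0.10, and WNT4 by -0.01, -0.98 and -2.43. The medians on the 21 arrays were 0.10 and 0.46 at days 2 and 4, and the differences at these days were 1.55 and 0.59 for IHH, -0.049 and 0.37 for NR2F2 and -0.24 and -1.29 for WNT4.

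By Pearson correlation of levels over the 21 arrays that were not weak, the 5 named genes most like FSTL3 were TXNDC16 (r = 0.93), TMEM61 (r = 0.89), GATA2 (r = 0.87), CYSTM1 (r = 0.86) and LTF, which encodes lactoferrin (r = 0.86). Over all 24 arrays they were TMEM61 (r = 0.84), TXNDC16 (r = 0.81), GNMT (r = 0.80), PNMT (r = 0.80) and LTF (r = 0.79). Within the family, the tested members with the highest r to FSTL3 over the 21 arrays were TGFBR2 (r = 0.68) and NOG (r = 0.65), and FSTL1 had the lowest (r = -0.46). The points share groups, slides and scans, and the values are a description.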

How the data were processed

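Endometrial RNA of 24 samples was labelled with Cy3 and hybridised to 1-colour Agilent arrays, per the labels' protocols. The deposited intensity values are the scanner software's processed signal per spot, background-subtracted and detrended but not normalized between arrays, per the file headers, which name Feature Extraction 9.5.3.1 and probe positions on rheMac2; the submitters' processing notes name version 10.7.3.1. The authors' value table holds log2 values of the same arrays, deposited with column medians of -0.411 to 0.106 on 21 arrays and 2.87, 0.704 and 2.13 on the weak ones. Differences between arrays in it correlated at 0.982 to 0.999 with those of the scanner values, so its scale and direction are known, but what its genes were centred on is not.

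Groups and days came from the labels. Control and outlier spots were left out, the 2 spots of a probe averaged, and log2 of the processed intensity taken minus the 75th percentile of the array. Probes were kept (12780) if 3 or 4 arrays of some group had signal well above background, and 1 probe per symbol, the brightest, gave 12214 features, 7786 with a symbol. Symbols came from the files or, through gene ID, synonym or accession, from the RefSeq gene table. For 9 probes, among them those of TGFB1, SMAD6, LEFTY1 and GDF1, the symbol came from the text of the probe's description. limma 3.58.1 in R 4.3.3 fitted 6 group means in all arrays (18 residual degrees of freedom), two-sided, with Benjamini-Hochberg adjustment and a threshold of 0.05, and was tested on simulated data. The number of arrays limits the precision. No pair of arrays was identical, and the highest correlation of 2 arrays was 0.975.

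Members and gene lists were chosen with earlier results of these data known. Named were FSTL3, BMP2, INHBA, FST, LEFTY2 and the TGF-beta ligands, up to 5 members with the smallest p in each direction at each day, and the 3 smallest in each direction from day 2 to day 6. Alternatives were another background correction, quantile normalization, other filters, the mean over probes, updated names, the authors' log2 values, array weights, blocks for slide, scan day and replicate number, and leaving out each array or the weak arrays.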

Additional observations from a re-analysis of the deposited data

Results flagged for a closer look

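In 126 groups of 4 arrays (21 genes), 12 had 1 array standing apart from the other 3, by a share of the group's range above Dixon's critical value; chance marks about 1 in 20 groups. Of these, 5 were on weak arrays. BMP6 at -0.28 and TGFBR1 at -0.28, both on non-mated day 2 replicate 3, were at the floor of that array, against -4.75 to -3.99 and -2.52 to -2.32 on the others, and SMAD4 was at 0.28 there, against -1.34 to -1.18. On the weak arrays of non-mated day 4, BMP2 was at -2.43 on replicate 1 (others -1.73 to -1.60) and ACVRL1 at -0.16 on replicate 2 (others -3.68 to -3.34).

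The other 7 were on arrays that were not weak. In conception cycles at day 2, FSTL3 was at 2.34 and TGFBR3 at 0.34 on replicate 1, against 4.19 to 4.40 and 0.95 to 0.96 on the others. FST was at -4.17 on replicate 3 of that group (others -2.99 to -2.80), and NOG at 1.13 on replicate 4 (others -1.83 to -1.42). TGFB2 was at 0.21 on conception day 6 replicate 4 (others -0.46 to -0.39). In non-mated cycles at day 6, BMPR2 was at -0.21 on replicate 4 (others -1.24 to -1.11) and SMAD4 at -1.98 on replicate 3 (others -1.44 to -1.35).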

How the results depend on the processing

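Under the alternatives run, 0 members passed in the comparisons of cycle types, in both non-mated tests of day and in the interaction. With array weights 1 member (TGFBR2, -1.51, limma, adjusted p = 0.0301) passed from day 2 to day 6 in conception cycles. Over the days in conception cycles 2 members passed with array weights (FSTL3 and FST, limma F-test, adjusted p = 0.0419 each). The share of all features that passed with array weights is not given here, so these calls are not read as particular to the family. Without the weak arrays 1 (FSTL3) passed the test over the days, where 0.426% of features did. Leaving out 1 array gave 0 members in every test. The replicate block gave 0 members in each test; of 12 same-numbered pairs, correlations ran from -0.23 to 0.46 and 2 were over 0.1, so the numbers were not taken as pairing. The FSTL3 difference at day 4 ran from -2.85 to -2.18 (lowest adjusted p 0.213), and on leaving out 1 array from -2.89 to -2.36 (lowest 0.122).

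Of 47 named differences, 17 changed sign under another setting and 7 on leaving out 1 array; none of these passed the threshold, and the cause was not tested. Without the weak arrays, day-2 differences became -0.080 for SMAD7, -0.091 for TGFBR2 and 0.015 for ACVRL1, day-4 differences -0.088 for TGFBR2 and 0.16 for GDF7, and the non-mated day 6 minus day 2 difference of BMP2 0.25. With array weights, TGFBR2 was -0.078, BMP6 0.060 and ACVRL1 0.25 at day 2, BMP2 0.0074 at day 6, and SMAD5 -0.15 from day 2 to day 6 in non-mated cycles. With the mean over probes TGFBR2 was -0.42 at day 2. With quantile normalization, ACVR2A was 0.49, BMP2 0.33 and BMP6 0.16 at day 2, BMP2 0.015 at day 4, and in non-mated cycles from day 2 to day 6 BMPR2 was 0.67 and BMP2 0.95; the median of all features moved to 0.49, 0.41 and 0.48 there. With normexp, BMP2 was 0.0077, BMP6 0.25, ACVRL1 0.14 and GDF7 0.24 at day 2, and in conception cycles from day 2 to day 6 ACVR2A was -0.014, GDF7 -0.25 and BMP2 -0.28; the median of all features moved to 0.15 and -0.17.

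On leaving out 1 array, day-2 differences ran from -1.59 to 0.015 for ACVRL1, -0.080 to 0.86 for SMAD7 and -0.091 to 0.43 for TGFBR2 (the sign turned without non-mated day 2 replicate 3), and from -0.61 to 0.18 for FSTL3 (without conception replicate 1 or non-mated replicate 4). SMAD1 at day 4 ran from -0.0013 to 1.34 (non-mated replicate 2), SMAD3 at day 6 from -0.012 to 0.65 (conception replicate 4), and BMP2 in non-mated cycles from day 2 to day 6 from -0.63 to 0.25 (non-mated day 2 replicate 3 or day 6 replicate 2). Signal over background limits NOG, FST, BMP7 and BMPR1B, which lay near the floor of several arrays. It also limits ACVRL1, GDF7 and BMP6, which were well above background on 17, 14 and 10 of the 24 arrays.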
